A study of Mus musculus with 12 samples.

Results

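The comparison described here was made in the 6 of 12 pancreatic islet libraries with the least Ptprc, the gene for CD45, a surface phosphatase carried by nearly all white blood cells. They are IgG 1, IgG 3 and IgG 4 on the control side and anti-CD3 2, anti-CD3 3 and anti-CD3 5 on the treated side. The series measured RNA of islets from wild-type female NOD/ShiLtJ mice, which were euglycemic and 9 weeks old when treatment began. Both groups received weekly antibody injections for 4 weeks: the control group an IgG, the treated group an antibody to CD3 at 2.5 mg/kg. Islets were taken 2 to 3 days after the last injection, and the whole series holds 6 libraries of each treatment. Whether a library is 1 mouse or pooled mice is not in the labels. The p-values therefore measure only the spread between these samples, which may be technical. The libraries were chosen from a measured value, so the level of Ptprc is a description here, and genes of white blood cells are tied to that choice.

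NOD mice develop autoimmune diabetes as T cells, B cells and macrophages gather around and inside the islets, a lesion called insulitis. CD3 is the signalling part of the T cell receptor, and antibodies to it remove or silence T cells. Interferon gamma from T cells makes islet cells display more MHC class I and switch on guanylate-binding proteins and other defence genes.

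In the authors' normalized counts, Ptprc was 41.3 in anti-CD3 3, 70.9 in IgG 3, 102 in anti-CD3 5, 110 in anti-CD3 2, 176 in IgG 4 and 243 in IgG 1. The last library inside the threshold was IgG 1, and the first outside was anti-CD3 4 with 375. The other 5 libraries outside had 471 in anti-CD3 1, 548 in anti-CD3 6, 594 in IgG 5, 729 in IgG 2 and 2339 in IgG 6. The treatments overlapped in Ptprc within the chosen libraries, but the 2 highest were both IgG and the lowest was anti-CD3.

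**Figure D1:**
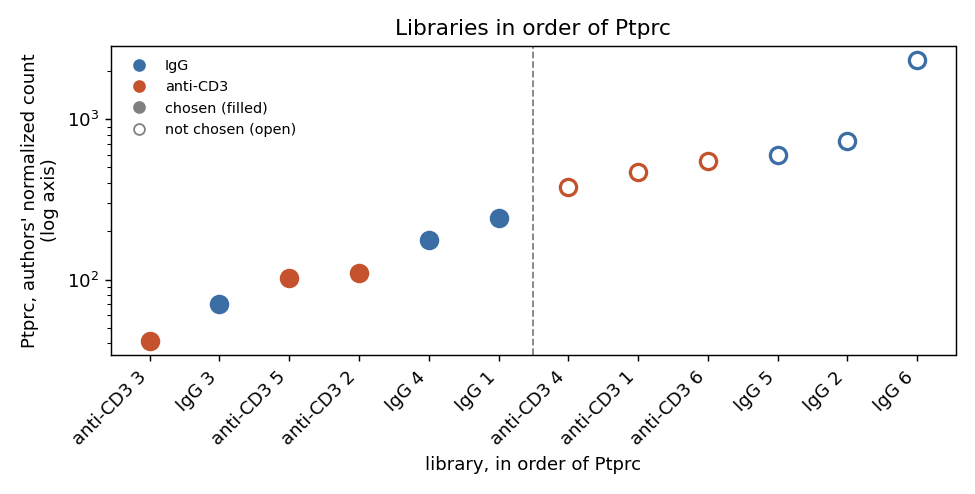
Ptprc in each library (authors' normalized count, log axis), with libraries in rising order and the treatment shown by colour. Filled points are the 6 chosen libraries, from 41.3 to 243, and the dashed line separates them from the 6 others, from 375 to 2339.

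The choice was compared with other white blood cell markers, each list scored by the mean log2 CPM of its genes. By that score the 6 lowest libraries for B cell and for plasma cell genes were the same 6, but not by summed CPM. The sum put anti-CD3 1 (101 CPM) and IgG 2 (111) below anti-CD3 2 (114) for B cell genes, and IgG 2 (383) below anti-CD3 2, 3 and 5 (407, 461 and 613) for plasma cell genes. By the score, the lowest 6 for T cell and MHC class II genes held anti-CD3 4 in place of IgG 1, and for dendritic cell genes IgG 2 in place of IgG 1. For macrophage genes and for cytotoxic genes, IgG 2 and anti-CD3 4 took the places of IgG 1 and IgG 4. By these scores IgG 1 was the chosen library whose place depended most often on the marker used.

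The 6 libraries held 13879023 to 19284740 counts each. Acinar enzyme genes, which belong to the exocrine tissue around the islets, made up 72.2% ± 3.99 of IgG counts (SD, n = 3) and 73.4% ± 1.70 of anti-CD3 counts (SD, n = 3), with p = 0.8 in a two-sided exact permutation test whose smallest p is 0.1 at 3 against 3. Islet hormone genes made up 1.60% ± 0.610 and 1.498% ± 0.533 (exact permutation test, p = 0.7). The libraries labelled islets therefore held hormone transcripts, but most of their RNA came from exocrine genes, leaving 3513279 to 5704189 counts per library for all other genes. Among the 6 libraries outside, the acinar share was 33.9% in IgG 6 and 57.6% in IgG 5, and 70.7% to 75.1% in the others.

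Two-sided quasi-likelihood tests in edgeR covered 12836 genes, and 2 of them (0.0156%) passed an adjusted p of 0.05, both higher with anti-CD3. These were Hist1h1c, a linker histone, and Ighg1, the constant region of IgG1 heavy chain. No gene was lower at that threshold (0%). An unadjusted p under 0.05 was reached by 804 genes (6.26%), beside 641.8 that the threshold itself allows, 349 of them higher (2.72%) and 455 lower (3.54%). All 3 treated libraries lay above all 3 controls for 693 genes (5.4%) and below them for 721 (5.62%). The median log2 fold change of all genes was -0.0051. The scaling itself places this median near 0, so it cannot show whether a general shift was present. Counts of list members below can be set beside these shares, except counts for a single treated library above or below all controls. For those no share over all genes was computed. A single library can never give a smaller count than all 3 together, so such counts only describe how the libraries differ. The lists were chosen with earlier results of these data known, so a count above its share is a description and not a test.

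Hist1h1c (ENSMUSG00000036181) lies on chromosome 13 from 23738808 to 23740367, plus strand, in GRCm38 and encodes histone H1.2, which binds the DNA between nucleosomes. Its level was 82.9, 73.9 and 51.3 CPM (the count relative to its library total after TMM scaling) in IgG 1, 3 and 4, and 216, 194 and 245 in anti-CD3 2, 3 and 5. Every treated library was more than the highest control, and the groups lay far apart relative to their spread. Hist1h1c rose by 1.65 ± 0.24 on the log2 scale (SE; edgeR adjusted p = 0.0396). The call was lost when IgG 4 (adjusted p = 0.307), anti-CD3 2 (0.25), anti-CD3 3 (0.089) or anti-CD3 5 (0.0864) was left out, while the log2 fold change stayed between 1.48 and 1.74 in those fits.

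Ighg1 (ENSMUSG00000076614; chromosome 12, 113325240 to 113330523, minus strand) was named because it passed, though immunoglobulin genes lie outside the rule for named genes. It had 3, 1 and 1 raw counts in IgG 1, 3 and 4, and 68, 110 and 183 in anti-CD3 2, 3 and 5. The summed counts were 361 against 5, a ratio of 80.4 with a 95% exact interval of 34.1 to 249 that covers counting error only. The fitted log2 fold change was 6.40 ± 0.69 (edgeR adjusted p = 0.00707), a value that depends on the prior count because the control counts were so low. Without IgG 4 the adjusted p was 0.136.

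The libraries outside the choice did not show that order. There Ighg1 had 2 counts in IgG 2, 416 in IgG 5 and 11379 in IgG 6, and 759, 62 and 1297 in anti-CD3 1, 4 and 6. With IgG 5 and anti-CD3 4 added to the chosen libraries, its log2 fold change was 0.52 (adjusted p = 0.937). The difference of the effect between chosen and other libraries was 7.01 on the log2 scale (edgeR, unadjusted p = 0.0709). In bulk RNA, fewer cells of a type and less RNA per cell cannot be told apart, and this holds for every gene of a single cell type below.

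**Figure D2:**
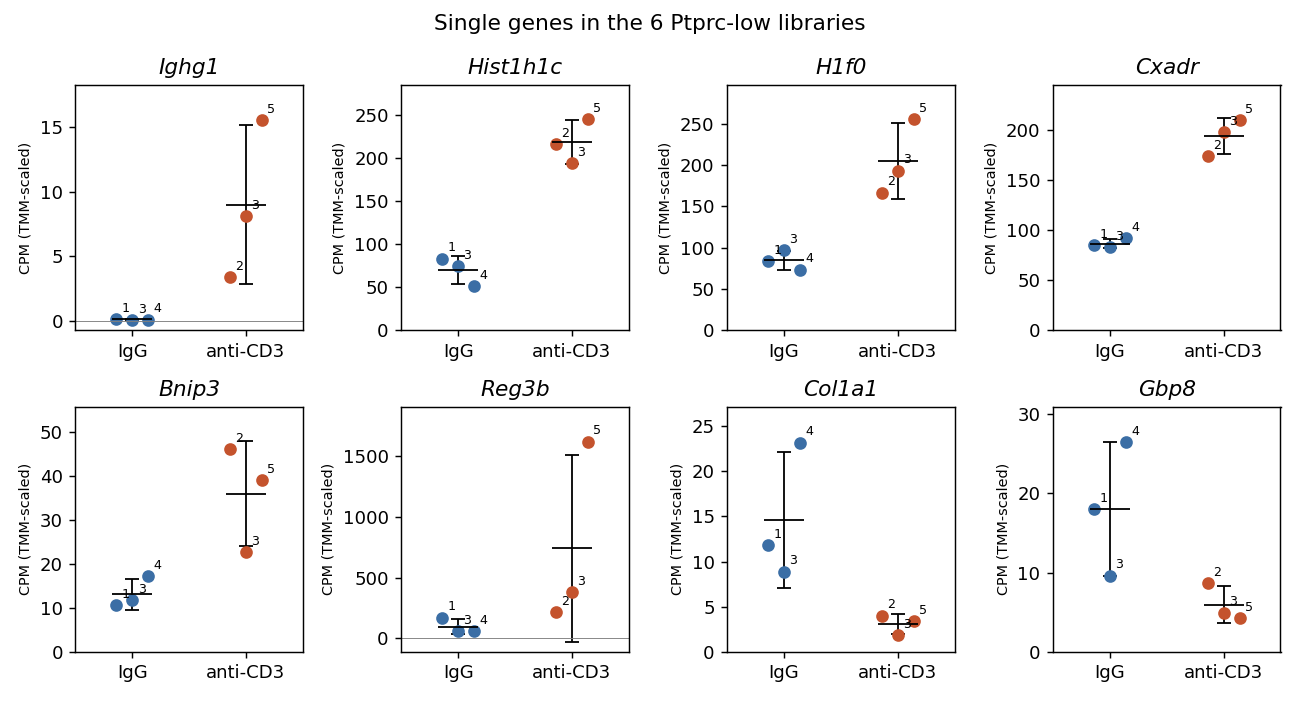
TMM-scaled CPM of 8 genes in the 6 Ptprc-low libraries, each point 1 library with its replicate number, the line the mean and the bar 1 SD (n = 3 per group). The groups do not overlap in any panel; Hist1h1c runs from 51.3 to 82.9 in the controls and from 194 to 245 in the treated libraries, and Reg3b reaches 1617 in anti-CD3 5 alone.

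Of 19 tested genes in the list of linker and replacement histones, whose transcripts can be made outside DNA replication, 1 passed the test. Another 4 had an unadjusted p under 0.05, all higher. The list's median log2 fold change was 0.38, with members from -1.07 to 1.65, 14 positive and 5 negative. Groups were apart on the higher side for 5 members and on the lower side for 2. Over the settings run, the median lay between 0.24 and 0.66. The 0.66 came from all 12 libraries with Ptprc as a covariate. Within the 6 libraries the highest was 0.53, without anti-CD3 2. H1f0, the linker histone of resting cells, had 83.8, 96.6 and 73.2 CPM in the IgG libraries and 167, 194 and 257 in the anti-CD3 libraries. Its groups did not overlap, and its log2 fold change of 1.28 ± 0.24 did not pass (edgeR adjusted p = 0.163). H3f3b, which encodes replacement histone H3.3, had 263, 259 and 269 CPM against 503, 442 and 607 (log2 fold change 0.97 ± 0.23, adjusted p = 0.29). The core histone gene Hist1h2bc had 14.2, 12.8 and 12.5 CPM against 22.2, 30.1 and 25.4 (0.97 ± 0.21, adjusted p = 0.254). In all 3 genes each treated library was above each control. Histone genes form close families, so reads may be shared among copies. Polyadenylated RNA was sequenced, so any histone transcripts without a poly(A) tail would be largely missed.

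The genes nearest to the threshold in the upward direction had groups apart as well, and none passed. Cxadr, the coxsackievirus and adenovirus receptor of epithelial junctions, had 85.2, 82.6 and 91.6 CPM in IgG and 174, 198 and 210 in anti-CD3 (log2 fold change 1.17 ± 0.21, edgeR adjusted p = 0.163). The zinc and manganese transporter Slc39a8 had 5.36, 7.05 and 5.10 CPM against 12.1, 15.2 and 16.9 (1.34 ± 0.24, adjusted p = 0.163). Tmc5, a member of the transmembrane channel-like family, had 4.03, 1.76 and 3.74 CPM against 9.29, 8.46 and 11.8 (1.62 ± 0.32, adjusted p = 0.177). In these 3 genes the treated libraries varied less among themselves than they differed from the controls. The next genes, Enpp1 and Ube2b, were named from a fixed panel and not for being near the threshold. Enpp1, a membrane enzyme that splits extracellular nucleotides, had 8.24, 6.71 and 8.98 CPM against 14.7, 17.7 and 18.7 (1.09 ± 0.23, adjusted p = 0.204), and it was the 1 ectonucleotidase of 8 tested with an unadjusted p under 0.05. Ube2b, a ubiquitin-conjugating enzyme, had 37.1, 29.8 and 33.1 CPM against 51.3, 52.6 and 47.5 (0.60 ± 0.20, adjusted p = 0.591), alone among 25 such enzymes at that unadjusted level.

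In the downward direction the 6 named genes with the smallest p included the matrix genes Col1a1, Col1a2 and Sparc, described below. Among the rest, Cyp1a1, a detoxifying enzyme under the aryl hydrocarbon receptor, had 5.41, 1.83 and 4.81 CPM in IgG and 0.2996, 1.10 and 0.340 in anti-CD3 (log2 fold change -2.81 ± 0.57, edgeR adjusted p = 0.204). Kcnn4, a calcium-activated potassium channel found in lymphocytes and epithelia, had 4.86, 5.89 and 5.75 CPM against 2.65, 1.76 and 1.53 (-1.45 ± 0.33, adjusted p = 0.262). Both genes were low in every treated library, and neither passed.

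Genes of the hypoxia response and of glycolysis were higher as a list. Of 20 tested members, 14 had an unadjusted p under 0.05, all higher, 6 had groups that did not overlap, and none passed the adjusted threshold. The list's median log2 fold change was 0.95, from -0.20 to 2.09, beside -0.0051 for all genes. Bnip3, a mitochondrial protein made under low oxygen, had 10.5, 11.7 and 17.1 CPM in IgG 1, 3 and 4 and 46.0, 22.7 and 39.0 in anti-CD3 2, 3 and 5 (log2 fold change 1.46 ± 0.28, edgeR adjusted p = 0.177). Tpi1, the glycolytic enzyme triosephosphate isomerase, had 80.0, 51.8 and 76.3 CPM against 155, 120 and 147 (1.02 ± 0.23, adjusted p = 0.262). Ankrd37, a small ankyrin repeat protein shown for its promoter below, had 1.56, 0.610 and 2.23 CPM against 10.6, 2.28 and 5.70 (2.09 ± 0.55, adjusted p = 0.478).

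The treated libraries were not alike in this list. Anti-CD3 2 lay above all IgG libraries for 19 of the 20 members and anti-CD3 5 for 18, but anti-CD3 3 for 7, and it lay below all of them for 4. Without anti-CD3 2 the list's median was 0.63, and without anti-CD3 3 it was 1.28. With Ptprc as a covariate in the 6 libraries (added after seeing the data) the median was 1.38. In that fit 7 members passed, among them Bnip3, Tpi1 and Ankrd37, beside 30 of all 12836 tested genes. Ptprc also chose the libraries, so these calls are a description.

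Hypoxia-inducible factors bind a short core sequence in the promoters of many of these genes. The motifs ACGTG and GCGTG were searched on both strands in the 250 bases before each gene's RefSeq start (GRCm38.p6). At least 1 match was found in 15 of the 19 list members with an entry (78.9%) and in 38.6% of 27025 promoters. ACGTG is also part of the E-box CACGTG, so a match names no factor. The list was made up of hypoxia response and glycolysis genes, so its share describes the list and not the treatment. The promoters of Bnip3 (chr7:138909507-138909756, minus strand) and Ankrd37 (chr8:45999851-46000100, minus strand) are shown because they are the members with the smallest p whose groups did not overlap and whose window held a match. They are written 5′ to 3′ with matches in capitals.
Bnip3: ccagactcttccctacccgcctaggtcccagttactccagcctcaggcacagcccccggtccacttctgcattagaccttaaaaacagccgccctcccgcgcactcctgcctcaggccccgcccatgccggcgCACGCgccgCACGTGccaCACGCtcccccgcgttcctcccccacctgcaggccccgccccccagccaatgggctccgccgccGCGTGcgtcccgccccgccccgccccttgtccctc
Ankrd37: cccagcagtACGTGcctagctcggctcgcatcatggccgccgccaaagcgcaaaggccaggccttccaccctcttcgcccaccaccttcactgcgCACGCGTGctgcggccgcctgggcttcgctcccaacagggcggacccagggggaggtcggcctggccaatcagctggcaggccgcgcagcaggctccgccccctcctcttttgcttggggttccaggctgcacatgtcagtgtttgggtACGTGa
Bnip3 holds 4 marked stretches and Ankrd37 holds 3.

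Regenerating proteins are secreted C-type lectins of acinar and islet cells known for their induction in pancreatic injury. All 6 tested members were above the controls in every treated library, each with an unadjusted p under 0.05, and none passed the adjusted threshold. Of 9 genes listed, 3 were not tested. Reg3d had 131, 84.4 and 110 CPM in IgG and 193, 272 and 341 in anti-CD3 (log2 fold change 1.31 ± 0.26, edgeR adjusted p = 0.2). Reg3g had 26.5, 10.6 and 10.3 CPM against 45.1, 64.0 and 224 (2.80 ± 0.72, adjusted p = 0.545). Reg3b had 171, 57.7 and 62.6 CPM against 218, 381 and 1617 (2.93 ± 0.86, adjusted p = 0.637).

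Anti-CD3 5 was far above the other treated libraries for Reg3a, Reg3b and Reg3g. Reg3a had 31.2, 6.44 and 9.05 CPM in IgG and 42.7, 54.9 and 380 in anti-CD3 (3.34 ± 1.27, adjusted p = 0.796). Reg2 had 419, 58.3 and 133 CPM against 493, 918 and 2097 (2.52 ± 0.84, adjusted p = 0.713). Reg1, the most abundant by CPM, had 2623, 3693 and 4776 CPM against 5878, 5956 and 7040 (0.77 ± 0.27, adjusted p = 0.667). The list's median log2 fold change was 2.66, and 1.66 without anti-CD3 5. The list's share of all counts was 0.436% ± 0.0695 in IgG and 0.807% ± 0.138 in anti-CD3 (n = 3 each; exact permutation test, two-sided, p = 0.1, the smallest possible, and 0.7 after adjustment over 7 library measures).

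Tissue kallikreins, serine proteases of exocrine glands, were also higher. Of 6 tested members 4 had an unadjusted p under 0.05 and 3 had groups apart, with a median of 0.94. Klk1b4 had 5.41, 5.08 and 5.32 CPM against 8.19, 15.7 and 20.9 (log2 fold change 1.49 ± 0.31, edgeR adjusted p = 0.204). Klk1b5 had 22.4, 33.9 and 35.0 CPM against 61.1, 59.6 and 69.1 (1.06 ± 0.22, adjusted p = 0.218). Within the kallikrein family and within the Reg family, genes are close copies of one another, and reads may be shared inside each family.

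The acinar enzyme list had a much smaller median. Of 32 tested members 1, the trypsinogen Try10, had an unadjusted p under 0.05, and the list's median was 0.23. Anti-CD3 5 lay above all controls for 28 members, anti-CD3 3 for 12 and anti-CD3 2 for 6, and the median was 0.10 without anti-CD3 5 and 0.12 without IgG 1. Try10 had 239, 350 and 428 CPM in IgG and 538, 592 and 468 in anti-CD3. Prss2, another trypsinogen, had 34380, 50709 and 54094 CPM against 56256, 67758 and 74886 (log2 fold change 0.52 ± 0.27, edgeR adjusted p = 0.822). The amylase Amy2b had 6759, 14943 and 16151 CPM against 15627, 19279 and 17591, and its groups overlapped. Cpa1, carboxypeptidase A, had 24851, 33638 and 29700 CPM against 28227, 24715 and 36386, with a log2 fold change of 0.02 ± 0.26. Of the Reg, kallikrein and acinar enzyme lists, all expressed in exocrine tissue, the enzymes had the smallest median.

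Stress genes of the CHOP, ATF3 and ATF4 arm, which follow unresolved protein folding stress or amino acid shortage, were mixed. Of 20 tested members 4 were higher and 1 lower at an unadjusted p under 0.05. The median of 0.13 depended on single libraries, being 0.41 without IgG 1, 0.26 without anti-CD3 2, 0.0003 without IgG 4 and -0.019 without anti-CD3 3. Atf3, a stress-induced transcription factor, had 121, 91.8 and 66.7 CPM in IgG and 200, 189 and 298 in anti-CD3 (log2 fold change 1.30 ± 0.27, edgeR adjusted p = 0.204). Fgf21, a hormone made by stressed acinar cells, had 2.56, 1.63 and 2.80 CPM against 3.89, 11.2 and 9.10 (1.77 ± 0.39, adjusted p = 0.262). Ddit3, which encodes CHOP, had 37.9, 17.8 and 15.8 CPM against 50.2, 57.8 and 55.2 (1.18 ± 0.29, adjusted p = 0.394). In these 3 genes every treated library was above every control.

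The chaperones and other targets of XBP1 and ATF6, which expand the folding capacity of the endoplasmic reticulum, were slightly higher, with 5 of 24 at an unadjusted p under 0.05 and a median of 0.32. Hspa5, the chief chaperone, had 765, 1344 and 1185 CPM against 1386, 1363 and 1542 (log2 fold change 0.38 ± 0.26, edgeR adjusted p = 0.901). Of 22 oligosaccharyltransferase and translocon genes, which serve glycosylation and entry into that compartment, 3 were higher at that level and the median was 0.28. Ost4, its smallest subunit, had 11.2, 15.2 and 14.3 CPM against 17.7, 25.5 and 24.8 (0.74 ± 0.23, adjusted p = 0.538), and the signal peptidase subunit Spcs2 had 53.3, 59.1 and 59.9 against 71.5, 95.7 and 89.3. None of these genes passed the adjusted threshold.

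Immediate early genes, switched on within minutes of a stimulus or of tissue handling, had 7 of 22 members higher and 1 lower at an unadjusted p under 0.05, with a median of 0.43. Anti-CD3 5 lay above all controls for 18 members and anti-CD3 2 for 15, but anti-CD3 3 for 4, and it lay below all of them for another 4. The median was 0.27 without anti-CD3 5 and 0.66 without anti-CD3 3. Junb had 84.6, 79.1 and 73.1 CPM in IgG and 143, 117 and 198 in anti-CD3 (log2 fold change 0.95 ± 0.23, edgeR adjusted p = 0.368). The 1 lower member was Fosl1, another AP-1 subunit, with 11.8, 21.1 and 16.8 CPM against 7.19, 5.66 and 8.85 (-1.19 ± 0.27, adjusted p = 0.262). The groups were apart in opposite directions for Junb and Fosl1. Of 16 p53 target and senescence genes 5 were higher at that level, and the median was 0.25, or 0.12 without IgG 4. The growth arrest gene Gadd45b had 40.3, 32.7 and 30.8 CPM against 66.8, 65.0 and 64.8 (0.92 ± 0.20, adjusted p = 0.262), and the antiproliferative gene Btg2 had 205, 171 and 149 CPM against 296, 222 and 394 (0.80 ± 0.26, adjusted p = 0.57).

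Genes of stellate cells, fibroblasts and pericytes, which lay down the matrix of the pancreas, were lower as a list. Of 21 tested members 12 had an unadjusted p under 0.05, all lower, 8 had groups that did not overlap, and none passed the adjusted threshold. The median log2 fold change was -1.11. Col1a1, the first chain of type I collagen, had 11.9, 8.87 and 23.2 CPM in IgG 1, 3 and 4 and 3.99, 1.84 and 3.40 in anti-CD3 2, 3 and 5 (log2 fold change -2.23 ± 0.39, edgeR adjusted p = 0.163). Col1a2, its partner chain, had 12.1, 9.55 and 23.4 CPM against 2.65, 3.09 and 5.44 (-2.03 ± 0.37, adjusted p = 0.177). Col3a1 of type III collagen had 13.3, 21.5 and 33.2 CPM against 3.74, 3.09 and 9.44 (-2.08 ± 0.44, adjusted p = 0.262).

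IgG 4 was the highest library for each of these collagens. Sparc, a matrix protein that binds collagen, had 46.7, 31.8 and 36.0 CPM against 22.4, 13.4 and 17.2 (-1.11 ± 0.24, adjusted p = 0.256). The summed level of the list was 180 to 288 CPM in the IgG libraries and 90.3 to 148 in the anti-CD3 libraries. With Ptprc as a covariate the list's median was -0.51. Endothelial genes, another vascular and stromal compartment, had a median of -0.26 with 1 of 18 members lower at an unadjusted p under 0.05. That median was -0.027 without IgG 1, -0.48 without IgG 3, -0.46 without anti-CD3 2 and 0.099 with Ptprc as a covariate.

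Interferon gamma response genes were lower as a list. Whether that followed from the choice of libraries by Ptprc was not tested. The covariate fits given below use the value that chose the libraries, so they cannot answer it. Of 22 tested members 17 had an unadjusted p under 0.05, all lower, 12 had groups apart, and none passed the adjusted threshold. The median log2 fold change was -0.98, from -1.77 to -0.34. Gbp8, a guanylate-binding protein, had 18.0, 9.62 and 26.5 CPM in IgG and 8.64, 4.93 and 4.25 in anti-CD3 (log2 fold change -1.58 ± 0.37, edgeR adjusted p = 0.357). Tgtp2, a T cell-specific guanosine triphosphatase also induced in other cells, had 11.95, 23.3 and 37.1 CPM against 9.19, 3.68 and 8.17 (-1.77 ± 0.42, adjusted p = 0.395).

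Cd274, which encodes the checkpoint ligand PD-L1, had 25.7, 27.6 and 43.5 CPM against 22.02, 6.84 and 14.5 (-1.15 ± 0.36, adjusted p = 0.571). Anti-CD3 3, the library with the least Ptprc, lay below all controls for 21 of the 22 members, and anti-CD3 2 and anti-CD3 5 for 14 each. The list's summed level was 538 to 1035 CPM in IgG and 235 to 437 in anti-CD3. With Ptprc as a covariate in the 6 libraries the median was -0.82, and in all 12 libraries with that covariate it was -0.47. The T cell chemokines Cxcl9 and Cxcl10, which interferon gamma induces, overlapped between the groups. Cxcl9 had 15.6, 7.99 and 25.9 CPM against 9.94, 4.85 and 8.51 (-1.08 ± 0.39, adjusted p = 0.706), and Cxcl10 had 20.8, 53.2 and 52.5 against 19.1, 16.4 and 47.4 (-0.61 ± 0.46, adjusted p = 0.919).

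Type I interferon genes, the antiviral set, were lower with a median of -0.74. Of 26 tested members 15 had an unadjusted p under 0.05, all lower, and 9 had groups apart. Ifit3b, an antiviral RNA-binding protein, had 11.5, 15.4 and 19.9 CPM in IgG and 5.19, 6.32 and 9.78 in anti-CD3 (log2 fold change -1.14 ± 0.29, edgeR adjusted p = 0.392). Oasl2, of the oligoadenylate synthetase family, had 30.1, 34.8 and 47.1 CPM against 19.0, 14.7 and 27.5 (-0.87 ± 0.26, adjusted p = 0.506). In this list anti-CD3 5 stood nearer to the controls: it lay below all of them for 10 members, and anti-CD3 2 and anti-CD3 3 for 22 each. In all 12 libraries with Ptprc as a covariate the median was -0.19.

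Interferon-activated factors bind a sequence of paired GAAA repeats. The motif, GAAA followed after 2 bases of any kind by another GAAA, was searched on both strands in the same 250-base windows. It was found in 10 of 14 interferon gamma list members with an entry (71.4%), in 10 of 20 type I members (50%) and in 3.04% of 27025 promoters. Several interferon regulatory factors share this spelling, so a match names no factor. These shares too describe lists made up of interferon response genes and not the treatment. The promoters of Ifit3b (chr19:34607707-34607956, plus strand) and Tgtp2 (chr11:49064213-49064462, minus strand) were chosen by the same rule as for the hypoxia genes. Capitals mark the motif, which reads as paired TTTC on the opposite strand.
Ifit3b: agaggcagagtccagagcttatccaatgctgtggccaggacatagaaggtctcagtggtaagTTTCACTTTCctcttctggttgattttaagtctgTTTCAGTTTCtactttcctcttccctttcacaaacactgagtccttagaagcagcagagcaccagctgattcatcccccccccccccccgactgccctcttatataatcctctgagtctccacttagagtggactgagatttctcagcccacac
Tgtp2: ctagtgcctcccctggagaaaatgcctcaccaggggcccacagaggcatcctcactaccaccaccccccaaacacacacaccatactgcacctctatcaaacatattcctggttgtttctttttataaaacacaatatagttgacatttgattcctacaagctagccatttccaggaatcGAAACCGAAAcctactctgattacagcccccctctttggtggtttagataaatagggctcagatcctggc
Ifit3b holds 2 matches, both on the opposite strand, and Tgtp2 holds 1.

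**Figure D3:**
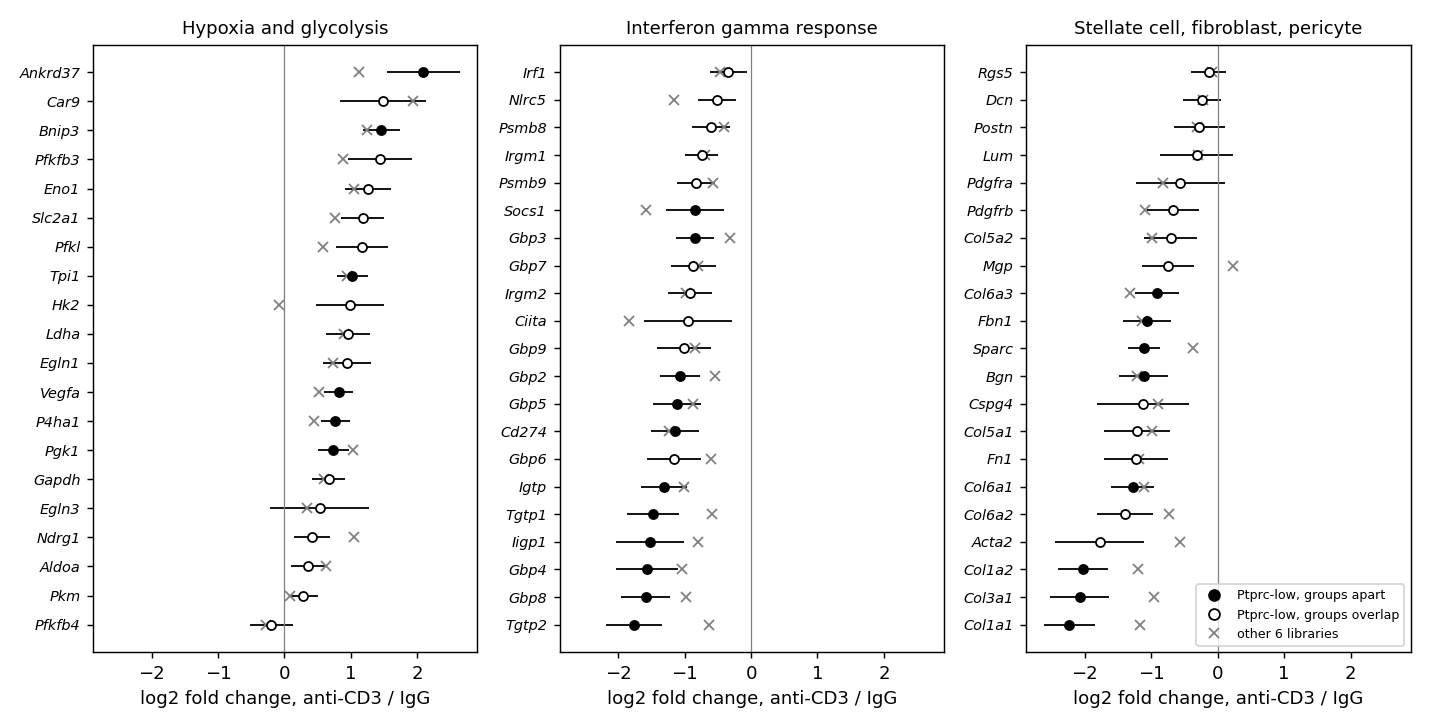
Log2 fold change (treated over control) for tested members of 3 lists (20 of 20, 21 of 22 and 21 of 21 genes), with bars of 1 SE. Filled points are genes whose 3 treated and 3 control Ptprc-low libraries did not overlap (6, 11 and 8 genes), open points are genes that overlapped, and crosses are the same genes in the other 6 libraries.

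Genes of MHC class I and peptide loading, through which cells show peptides to CD8 T cells, had a median of -0.69, with 10 of 20 lower at an unadjusted p under 0.05 and 5 apart. H2-T23 had 13.7, 8.06 and 12.4 CPM in IgG and 5.59, 4.56 and 6.46 in anti-CD3 (log2 fold change -1.04 ± 0.27, edgeR adjusted p = 0.402). The peptide transporter subunit Tap2 had 51.3, 29.0 and 38.9 CPM against 21.7, 17.6 and 24.8 (-0.90 ± 0.24, adjusted p = 0.465). B2m, the light chain of all class I molecules, had 327, 132 and 314 CPM against 173, 122 and 138, and IgG 3 lay among the treated libraries (-0.83 ± 0.31, adjusted p = 0.713). With Ptprc as a covariate the list's median was -0.30.

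MHC class II genes, made by professional antigen-presenting cells, had a median of -1.09 over 9 members, 2 of them lower at an unadjusted p under 0.05 and none with groups apart. H2-DMa had 6.60, 2.10 and 3.74 CPM against 2.95, 1.18 and 1.53, and the protease Ctss had 27.0, 7.79 and 19.8 against 11.6, 6.40 and 10.6. In both, IgG 1 was the highest library. Without IgG 1 the list's median was -0.51, and with Ptprc as a covariate 0.01.

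T cell genes are tied to the choice of libraries and are given as a description. All 20 tested members had a negative log2 fold change, 2 had groups apart, 6 reached an unadjusted p under 0.05, and the median was -1.04. Cd3e, a chain of the antibody's own target, had 5.13, 1.15 and 1.94 CPM in IgG 1, 3 and 4 and 0.649, 0.515 and 0.766 in anti-CD3 2, 3 and 5, with no overlap. The coreceptor Cd8a had 4.21, 1.15 and 3.59 CPM against 1.40, 0.147 and 0.255, and Cd4 had 5.496, 0.610 and 3.16 against 0.999, 0.515 and 1.70. IgG 1 was the highest library for all 3. The median was -0.40 without IgG 1 and 0.17 with Ptprc as a covariate. Foxp3, the factor of regulatory T cells, had 1.19, 0.339 and 0.934 CPM against 0.699, 0.294 and 0.425.

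Macrophage genes had a median of -0.998, with 7 of 14 lower at an unadjusted p under 0.05 and 2 apart. The complement genes C1qa and C1qb led the list. C1qa had 24.3, 9.62 and 19.6 CPM in IgG and 7.69, 6.03 and 8.76 in anti-CD3, and C1qb had 12.7, 4.74 and 7.83 against 4.79, 1.76 and 2.72. Adgre1, which encodes F4/80, had 1.51, 1.56 and 2.16 CPM against 1.35, 1.47 and 0.425. The list's summed level was 106 to 246 CPM in IgG and 71.3 to 112 in anti-CD3, so these marker sums overlapped slightly. Without IgG 1 the median was -0.56. With Ptprc as a covariate it was -0.21 in the 6 libraries and -0.13 in all 12.

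Among 11 plasma cell genes 7 had a positive and 4 a negative log2 fold change, from -2.86 to 6.40. The median was 0.18, or 2.63 without IgG 1. Groups were apart on the higher side for 2 genes, Ighg1 and Xbp1, and on the lower side for 0. Xbp1, which acinar cells also make in quantity, had 199, 212 and 216 CPM against 246, 335 and 419 (log2 fold change 0.67 ± 0.24, edgeR adjusted p = 0.686). Jchain, the joining chain of secreted antibody, had 6.32, 0.474 and 0.863 CPM against 19.9, 3.23 and 11.9 (2.12 ± 1.05, adjusted p = 0.841), and only IgG 1 overlapped the treated libraries. Ighg1 showed no such overlap, with IgG 1 at 3 counts.

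Cell cycle genes, expressed in dividing lymphocytes among other cells, had 3 of 17 lower at an unadjusted p under 0.05 and a median of -0.34, which was -0.079 without IgG 1. Mki67, the proliferation marker, had 10.4, 3.39 and 3.74 CPM in IgG and 2.70, 0.662 and 1.70 in anti-CD3 (log2 fold change -1.77 ± 0.53, edgeR adjusted p = 0.538). Ccnd1, which encodes cyclin D1, had 9.25, 13.96 and 13.8 CPM against 8.49, 7.13 and 8.51. Mki67 was highest in IgG 1 as the T cell genes were, and Ccnd1 was not.

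The endocrine lists had medians near 0, with treated libraries on opposite sides of the controls. Anti-CD3 5 lay below all controls for 12 of 18 endocrine transcription factors, 12 of 23 glucose sensing and secretion genes and 13 of 17 granule and prohormone processing genes, and above all of them for none. Anti-CD3 3 lay above all controls for 13, 4 and 8 of the same lists. The medians were 0.05, -0.05 and -0.09 in that order. They were 0.27, 0.13 and 0.14 without anti-CD3 5, and -0.11, -0.068 and -0.25 without anti-CD3 3. None of 7 hormone genes had an unadjusted p under 0.05, and their median was -0.15, or 0.10 without IgG 1, 0.086 without anti-CD3 2 and -0.37 without anti-CD3 3. Insulin genes Ins1 and Ins2 overlapped between the groups. Ins1 had 4391, 1722 and 1627 CPM in IgG and 2098, 2523 and 2012 in anti-CD3, and Ins2 had 8618, 6738 and 5929 against 7225, 11395 and 5569. Their log2 fold changes were -0.22 ± 0.35 and 0.19 ± 0.30 (edgeR adjusted p = 0.968 and 0.969). Glucagon, from Gcg, had 2774, 2759 and 3455 CPM against 3767, 4717 and 2737 (0.32 ± 0.27, adjusted p = 0.928). Somatostatin, from Sst, had 1156, 505 and 503 CPM against 372, 538 and 439 (-0.68 ± 0.32, adjusted p = 0.808), with IgG 1 alone high.

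Of 18 endocrine transcription factors 1 had an unadjusted p under 0.05. This was Mafa, the beta cell factor that drives insulin transcription, with 11.9, 7.18 and 5.10 CPM in IgG and 20.0, 25.0 and 11.6 in anti-CD3 (log2 fold change 1.22 ± 0.34, edgeR adjusted p = 0.479). Its groups overlapped only through IgG 1 and anti-CD3 5, which were nearly equal. Pdx1, the factor of pancreas and beta cell identity, had 8.66, 10.4 and 7.69 CPM against 6.89, 6.40 and 7.06 (-0.40 ± 0.24, adjusted p = 0.889), lower in every treated library. The glucose transporter Slc2a2 had 9.39, 24.1 and 14.01 CPM against 17.3, 12.3 and 9.27. No gene among 23 of beta cell glucose sensing and secretion reached an unadjusted p under 0.05.

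Genes of the protein synthesis and energy machinery had small positive medians, and the treated libraries were not alike. All 65 cytosolic ribosomal protein genes had a positive log2 fold change (49.2% of all tested genes did), with a median of 0.39, 14 at an unadjusted p under 0.05 and 11 with groups apart. Rps7 had 232, 264 and 282 CPM in IgG and 297, 420 and 565 in anti-CD3, and Rpl35 had 144, 148 and 160 against 161, 225 and 310. Anti-CD3 2 was close to the controls and anti-CD3 5 was highest. Without anti-CD3 5 the list's median was 0.18. Of 62 nuclear-encoded respiratory chain genes 7 were higher at that level and the median was 0.27. Anti-CD3 5 lay above all controls for 56 of them and anti-CD3 3 for 43, while anti-CD3 2 was above for 11 and below for 17. The median was 0.15 without anti-CD3 5 and 0.42 without anti-CD3 2. Cox7b, a subunit of cytochrome oxidase, had 16.0, 19.7 and 20.3 CPM against 25.9, 33.7 and 36.3 (log2 fold change 0.78 ± 0.22, edgeR adjusted p = 0.478), and Cox7c had 18.0, 18.8 and 19.8 against 21.2, 34.5 and 40.6.

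Whether the effect differed between the Ptprc-low libraries and the other 6 was tested in one model of all 12 libraries. Of 14285 genes 0 passed (0%), 596 had an unadjusted p under 0.05 (4.17%), and the smallest adjusted p was 0.985. No gene-level difference was therefore detected, which does not show that the effects were equal. In the other 6 libraries alone, 0 of 13791 genes passed and 2561 had an unadjusted p under 0.05 (18.6%). Over all 12 libraries, 10 of 13115 genes (0.0762%) passed, all higher. These comparisons share libraries, so their values are set side by side only.

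For Hist1h1c the log2 fold change was 1.65 in the Ptprc-low libraries, 2.55 in the others and 2.09 in all 12. The Reg list had a median of 2.66 in the Ptprc-low and 2.67 in the other libraries. The corresponding medians were 0.95 and 0.76 for hypoxia and glycolysis, -1.11 and -0.95 for stellate cells and fibroblasts, and -0.98 and -0.80 for interferon gamma genes. Several exocrine and biosynthetic lists lay further apart. The acinar enzyme median was 0.23 in the Ptprc-low and 1.31 in the other libraries, the cytosolic ribosomal median 0.39 and 1.11, and the respiratory chain median 0.27 and 0.90. The acinar injury list had -0.23 and 0.86, regulatory T cell genes -0.09 and -0.72, and the 4 tested gut and liver genes -0.0049 and 1.18. Without IgG 1 the Ptprc-low medians of the acinar injury and regulatory T cell lists were -0.067 and 0.15. Without IgG 6 the medians of the same lists in the other libraries were 0.63 and -0.065.

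The difference had an unadjusted p under 0.05, with the smaller effect in Ptprc-low libraries, for 22 of 65 cytosolic ribosomal genes, 18 of 62 respiratory chain genes and 6 of 32 acinar enzyme genes, beside 2.14% of all genes in that direction. The other 6 libraries hold IgG 5 and IgG 6, with the lowest acinar shares. Without IgG 6 their medians were 0.91 for acinar enzymes, 1.16 for cytosolic ribosomal genes and 0.87 for the respiratory chain, and -0.46 for stellate cells and fibroblasts, -0.22 for interferon gamma genes and -0.18 for T cell genes. The last 3 medians were thus much nearer to 0 without that 1 library, while those of the Ptprc-low libraries do not use it.

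**Figure D4:**
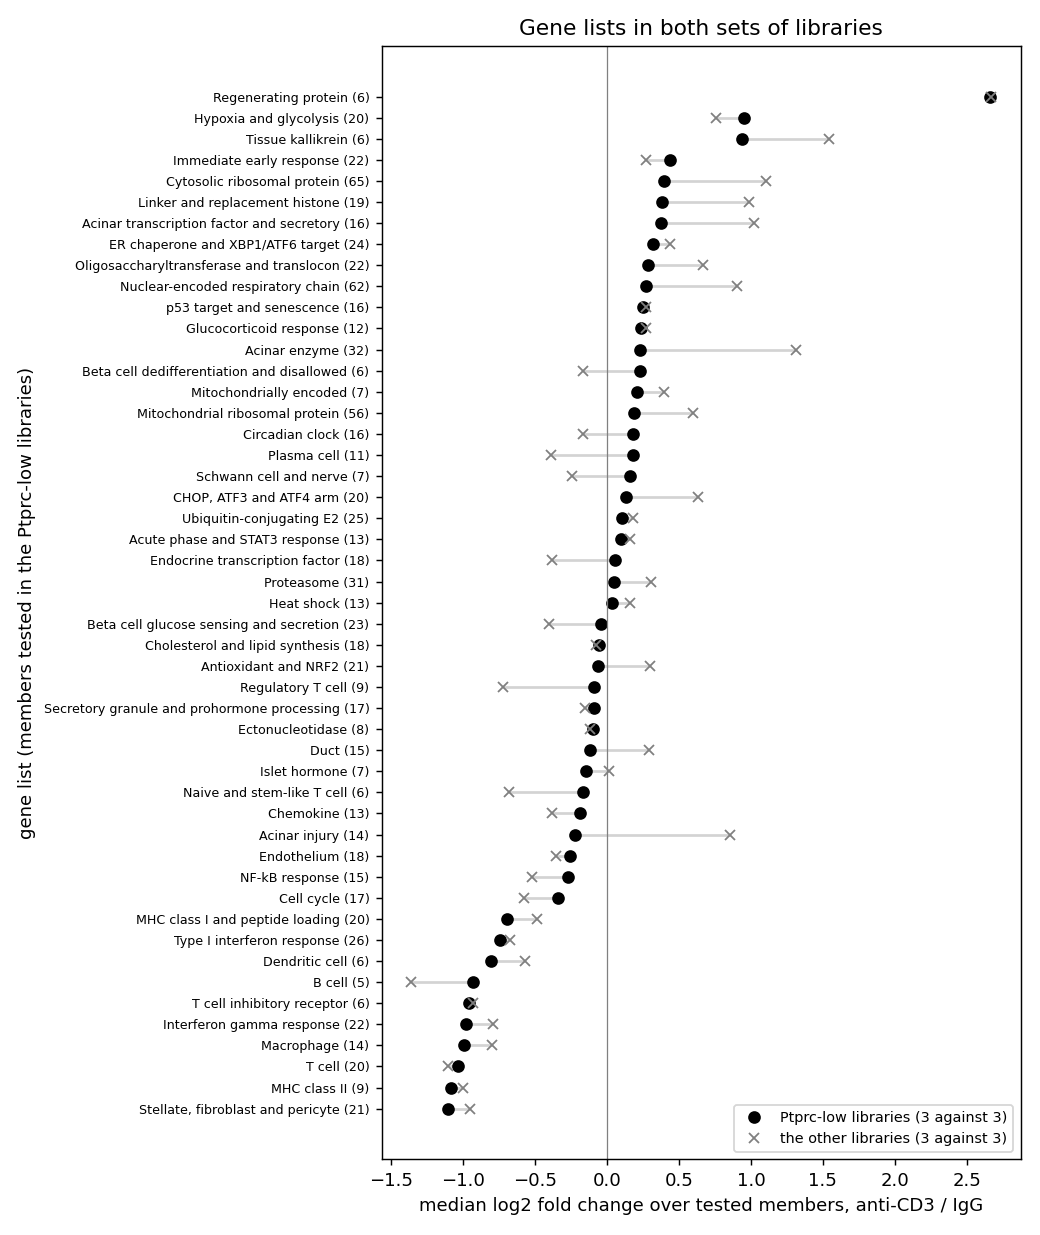
Median log2 fold change (treated over control) of the tested members of each of 49 gene lists with at least 5 tested members, in the Ptprc-low libraries (points) and the other libraries (crosses). The Reg list is highest in both, at 2.66 and 2.67, and the acinar enzyme list has the marks far apart, at 0.23 and 1.31.

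The number of genes called in the 6 libraries depended on the method. DESeq2 called 59 genes, 34 higher and 25 lower, and limma-voom with quality weights called 60, 38 higher and 22 lower. Both called the same 36, which are 61% of the DESeq2 and 60% of the limma-voom genes. Those 36 included Hist1h1c, H1f0, Hist1h2bc and H3f3b, the hypoxia genes Bnip3 and Tpi1, Reg3d, Klk1b5, Atf3, Ddit3, Enpp1, Cxadr, Slc39a8 and Tmc5 on the higher side. On the lower side they included Col1a1, Col1a2, Col3a1, Sparc, Fosl1 and Tgtp2. DESeq2 gave Col1a1 a log2 fold change of -2.24 (adjusted p = 3.12e-05) and Bnip3 1.46 (0.000898).

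The count also depended on single libraries. Leaving out IgG 1 gave 43 genes, leaving out IgG 3 gave 18 and leaving out IgG 4 gave 0. With Ptprc as a covariate 30 genes were called, 28 of them higher. With the 6 libraries of lowest leukocyte score, IgG 3 and IgG 4 against anti-CD3 2, 3, 4 and 5, there were 42. With 4 libraries of lowest Ptprc in each treatment there were 0.

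**Figure D5:**
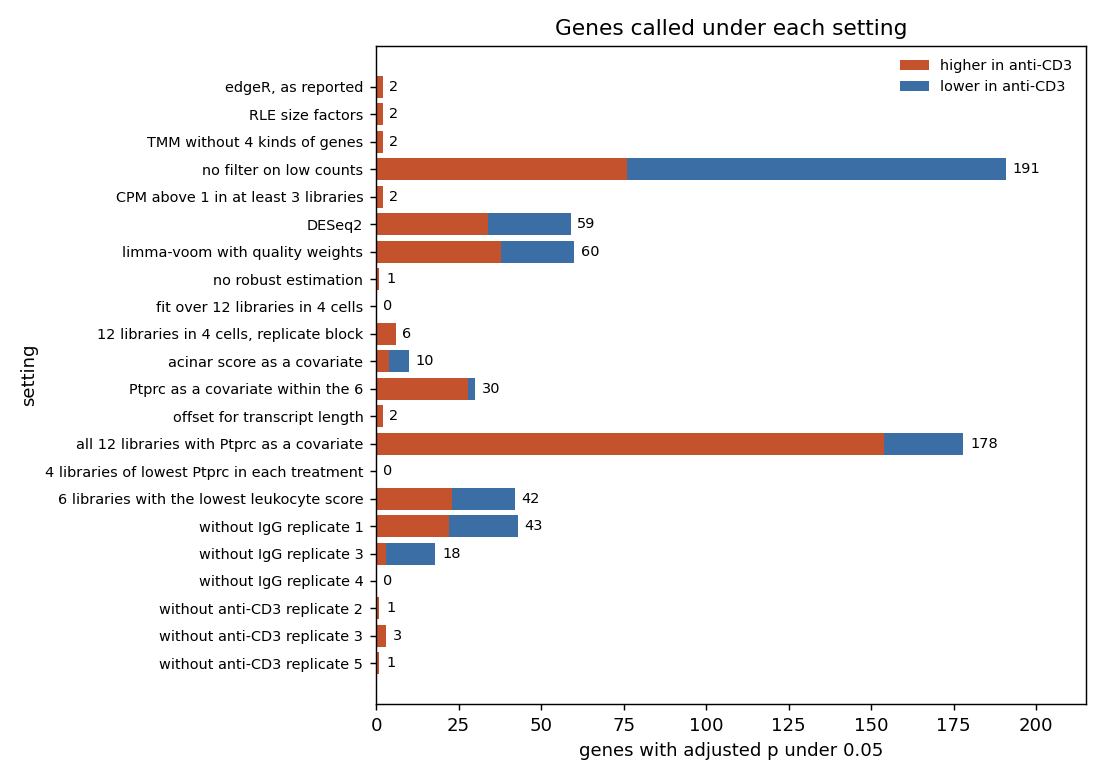
Number of genes with an adjusted p under 0.05 in the Ptprc-low libraries under each setting, split into genes higher and lower with anti-CD3. The reported edgeR fit called 2, DESeq2 59, limma-voom 60 and the fit with no filter on low counts 191.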

How the data were processed

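Polyadenylated RNA of isolated islets was sequenced as read pairs, per the labels' protocols. Trimmomatic 0.36, STAR 2.5.2b, featureCounts of Subread 1.5.2, DESeq2 and GRCm38 (mm10) are named, without options, in the submitters' processing notes; the strand setting and the handling of multi-mapping reads are not given there. Unnormalized counts for 49315 genes, as deposited, were the input. A second table by the authors gives each library's normalized signal, which ranked the libraries by Ptprc, and the authors' log2 fold changes and p-values, of which none is printed here. No column of per-sample values was left unmapped; 1 column carries an unexplained prefix.

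Counts of the 6 libraries were analysed with edgeR 4.0.16 in R 4.3.3: filterByExpr (minimum count 10, total 15), TMM, robust quasi-likelihood F test, Benjamini-Hochberg adjustment at 0.05, all two-sided. SE was the log2 fold change divided by the square root of F. The difference from the other libraries was an interaction over 12 libraries in 4 cells. DESeq2 1.42.0 and limma 3.58.1 served as alternatives. The procedure was also run on simulated data, and the outcome is not reported here. Symbols came from GENCODE M21. Promoters came from RefSeq.

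Members and all 56 gene lists were chosen with earlier results of these data known. Genes were named by rule: up to 12 called genes per direction whose log2 CPM averaged 1 or more, without receptor or immunoglobulin segments, predicted genes and pseudogenes; where fewer than 6 passed, those of smallest p up to 6; a fixed panel, part of which is not reported here; and the 2 members of smallest p of each list described. Ighg1 and Ankrd37 fall outside this rule and were chosen after their values were seen.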

Additional observations from a re-analysis of the deposited data

How the results depend on the processing

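The count of genes changed in the 6 Ptprc-low libraries, 2 as reported, was the same with RLE size factors, with TMM computed without immune, acinar, Reg and hormone genes, with a filter of CPM above 1 in at least 3 libraries and with a transcript length offset. It was 191 with no filter on low counts, 59 with DESeq2, 60 with limma-voom, 1 without robust estimation, 0 in the fit over 12 libraries in 4 cells, 10 with the acinar score as a covariate, 30 with Ptprc as a covariate, 178 in all 12 libraries with Ptprc as a covariate, 0 with 4 libraries per treatment and 42 with the lowest leukocyte scores. The covariate, 12-library and 4-library fits of list medians, and the other libraries without IgG 6, were chosen after the data were seen. Leaving out 1 library gave 0 to 43, the extremes being without IgG 4 and without IgG 1, and 1, 3 and 1 without anti-CD3 2, 3 and 5. The cause of these changes was not tested.

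No paired analysis was possible within the 6 libraries because the IgG and anti-CD3 libraries share only replicate number 3. In the 12-library fit with the replicate number as a block, 6 genes were called, neither of them Hist1h1c or Ighg1, and 9 genes differed in effect between the chosen and other libraries, beside 0 without the block and 0 under every other alternative run for that difference, among them DESeq2 and each library left out. Same-numbered libraries had deviation correlations of 0.308, -0.154, 0.21, -0.057, -0.237 and 0.159. These values alone cannot show whether same-numbered libraries share more than a number. Hist1h1c failed in 8 settings and Ighg1 in 6, with no change of sign. Beside the libraries left out above, Hist1h1c had an adjusted p of 0.994 with that block (log2 fold change 1.13), 0.839 in the 4-cell fit, 0.0707 with 4 libraries per treatment and 0.0553 without robust estimation. Ighg1 had 0.937 with 4 libraries per treatment, 0.899 in the 4-cell fit, 0.439 with the block, 0.272 in all 12 libraries with Ptprc as a covariate and 0.141 with the lowest leukocyte scores.

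Of 1595 alternative values for 76 genes, 1400 kept direction and side of the threshold, 150 newly passed, 14 no longer passed and 31 changed sign, all for genes that had not passed. Under the replicate block these log2 fold changes were 0.44 for Cd4, 0.55 for Foxp3, 0.26 for Ins1, 0.10 for Sst, -0.11 for Prss2, -0.16 for Amy2b, -0.77 for Cpa1, 0.026 for B2m and 0.027 for Ctss. With Ptprc as a covariate in the 6 they were 0.018 for Cd4, 0.12 for Foxp3, 0.12 for Ins1, -0.0097 for Ins2 and -0.0012 for Cpa1, and in all 12 libraries with it 0.22 for Foxp3 and 0.30 for Adgre1. With the lowest leukocyte scores they were 0.38 for Ptprc, 0.42 for Cd4, 0.70 for Foxp3, 0.40 for Ins1 and -0.13 for Cpa1. The acinar covariate gave 0.41 for Ins1 and -0.16 for Cpa1, limma-voom 0.30 for Ins1 and -0.088 for Cpa1, and the length offset -0.046 for Cpa1. Leaving out 1 library gave -0.46 to 0.40 for Ins1, -0.14 to 0.42 for Ins2, -0.55 to 0.16 for Slc2a2 and -0.13 to 0.14 for Cpa1, positive without IgG 1 for Ins1, positive without IgG 3 for Slc2a2, negative without anti-CD3 3 for Ins2, and negative without IgG 1 or anti-CD3 5 for Cpa1. Depth outside acinar genes limits what 3 libraries a side can show for genes near 1 CPM.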
